A study of Mus musculus with 6 samples.

Results

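Respiratory complex I genes were followed in muscle satellite cells, a resident stem cell, from Young and Adult mice. The genes were taken by name from the array annotation: every non-control probe whose gene name is that of a numbered Nduf subunit (series a, b, c, s or v), of Ndufab1 or of a numbered Ndufaf assembly factor. This gave 50 probes for 41 genes, of 32068 genes tested in all. The 41 were 7 core subunits, 29 accessory subunits, 4 assembly factors and Ndufa4, which carries a complex I name but is now assigned to complex IV. All samples came from male C57BL/6 animals. There were 3 Young samples (replicates 1 and 3 at 3 months, replicate 2 at 2 months) and 3 Adult samples (all at 6 months), with 1 array each. Cells had been sorted as positive for integrin alpha7 and CD34 and negative for CD31, CD45, CD11b and Sca1, and their RNA was amplified for small cell numbers before Cy3 labelling. How many animals contributed to a sample is not given, so the p-values measure the spread between these samples.

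Complex I is the entry point of the mitochondrial electron transport chain. It takes electrons from NADH, passes them along a flavin and a row of iron-sulfur clusters in its matrix arm to ubiquinone, and couples this to proton pumping by its membrane arm. The core subunits carry out these reactions; part of them is encoded in the nucleus and part, the ND subunits of the membrane arm, in mitochondrial DNA. The accessory subunits surround the core and are needed for its assembly and stability, while assembly factors help to build the complex and are not kept in it. Quiescent satellite cells are known for few mitochondria and low respiration compared with activated ones.

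The arrays differed in brightness in ways that touch every value below. Of 55681 probes, 41528 to 45926 were well above background on the Young arrays and 47554 to 49957 on the Adult arrays. All 50 complex I probes were well above background on all 6 arrays and none of their spots was saturated. A level is the log2 signal minus that of the 75th percentile of the same array, and a difference is Adult minus Young on that scale. Dim genes tended to be higher in Adult and bright genes lower: the median difference was 0.30 over all genes and -0.31 over the 8017 brightest genes, which hold 33 of the 41 complex I genes. By limma 20% of all genes were higher in Adult and 8.44% lower, a split that moved with scaling: 2708 lower and 6426 higher here, 2750 and 2867 with quantile normalization, 8809 and 3445 with median scaling. Of 8 satellite cell markers, 4 were lower in Adult, 0 were higher and 4 did not pass, with a median of -0.55. The lower ones were Itga7, which was used in the sort (by 1.08), Cdh15 (by 1.12), Vcam1 (by 0.89) and Calcr (by 0.73). Among those that did not pass were Pax7, which defines the cell type (-0.34 ± 0.25 SE, limma adjusted p = 0.304), and Cd34, also used in the sort (-0.18 ± 0.21 SE, limma adjusted p = 0.522).

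Complex I genes were lower in Adult than in Young cells. By limma with Benjamini-Hochberg adjustment over all genes, 32 of the 41 were lower in Adult, 0 were higher and 9 did not pass, where 8.44% of all genes and 18.9% of the 8017 brightest were lower (20% of all genes were higher). Each of the 41 differences was negative, so none was higher at an unadjusted p under 0.05 either. In 36 of the 41 every Adult array lay below every Young array, against 21.6% of all genes (55.6% in either direction) and 47.5% of the 8017 brightest. The median difference was -1.0, which is -1.31 relative to all genes and -0.69 relative to the brightest genes. Relative to all genes it was -0.81 with quantile normalization and -0.80 with the series matrix values. In bulk samples such as these, less RNA per cell and fewer cells of a type that carries it cannot be told apart. The number of calls fell whichever array was left out. Leaving out Young replicate 1, 2 or 3 gave 3, 25 or 5 lower calls, and leaving out Adult replicate 1, 2 or 3 gave 0, 5 or 0. In these same fits 0.0686% to 3.93% of all genes were called lower. All 41 differences stayed negative there and 34 to 36 had an unadjusted p under 0.05, beside 11.3% to 14.1% of all genes and 23.1% to 28.3% of the brightest that were lower at that p. With all arrays, 37 of the 41 were lower at that p, beside 16.2% of all genes and 33.9% of the brightest, and 15429 of the 32068 genes passed it in either direction.

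**Figure D1:**
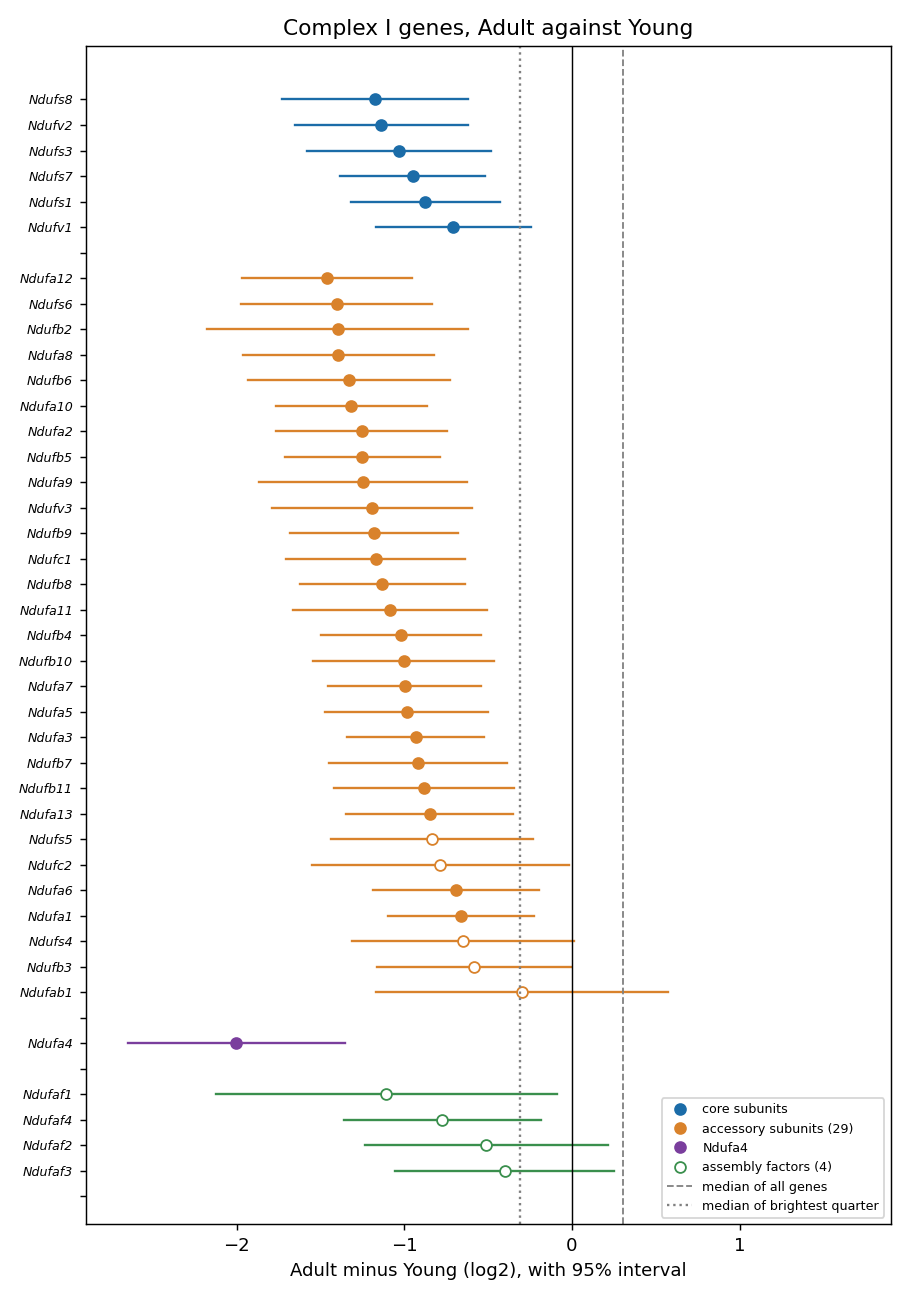
Adult minus Young difference (log2) of 40 of the 41 complex I genes with its 95% interval, by class; filled points passed the adjusted threshold and open points did not. All points lie left of 0, from -2.0 for Ndufa4 to -0.30 for Ndufab1, and the 4 assembly factors are open.

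All 7 nuclear core subunits were lower in Adult, by 0.71 to 1.17 on the log2 scale. Of these, 6 are described by name. Ndufv1 holds the flavin and the NADH site where electrons enter. It measured 3.10, 3.32 and 3.44 in Young replicates 1, 2 and 3 and 2.64, 2.67 and 2.42 in Adult replicates 1, 2 and 3. The groups did not overlap, and Ndufv1 fell by 0.71 ± 0.19 SE (limma adjusted p = 0.0416), the smallest fall of a core subunit. Its call passed in 6 of 20 alternatives of the processing, where the other core subunits passed in 13 to 15. With quantile normalization and with the series matrix values Ndufv1 did not pass (limma adjusted p = 0.114 and 0.129). Ndufv2, which carries an iron-sulfur cluster beside it, measured 3.21, 3.18 and 3.06 in Young and 2.01, 2.30 and 1.73 in Adult. It was 2.20-fold lower (difference -1.14 ± 0.21 SE, limma adjusted p = 0.0246). Ndufs1, the large subunit that carries several iron-sulfur clusters, measured 2.23, 2.08 and 2.11 in Young and 1.10, 1.44 and 1.26 in Adult. Its 1.83-fold fall passed the threshold (limma adjusted p = 0.0275), with no overlap.

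The core subunits next to the ubiquinone site fell by a like amount. Ndufs7, which carries the last cluster before ubiquinone, measured 3.76, 3.76 and 3.74 in Young and 2.89, 2.92 and 2.61 in Adult (1.93-fold lower, limma adjusted p = 0.0248). Ndufs3 connects these parts of the matrix arm and measured 3.50, 3.57 and 3.72 in Young and 2.74, 2.75 and 2.19 in Adult. It was 2.05-fold lower (limma adjusted p = 0.0292), with Adult replicate 3 the lowest array. Ndufs8, which carries iron-sulfur clusters on the way to Ndufs7, measured 1.68, 1.62 and 1.52 in Young and 0.28, 0.82 and 0.20 in Adult. Its fall of 1.17 ± 0.23 SE was the largest of the core subunits (limma adjusted p = 0.0254). The probes of Ndufv1, Ndufs8 and Ndufs7 lie on mm9 chromosome 19 from 4007508 to 4007567, chromosome 19 from 3911177 to 3911236 and chromosome 10 from 79719478 to 79719537. No annotation of that build was used, so the exon or untranslated region under each probe is not given.

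The mitochondrially encoded core subunits did not follow the nuclear ones. They are outside the name rule and were looked up from a list of the 7 ND genes, of which 6 were on the array. By limma, 0 of the 6 passed in either direction, and 0 had an unadjusted p under 0.05. Their differences ran from -0.27 to 0.18 with a median of 0.05, and the groups overlapped in each of the 6. ND4 measured 6.48, 6.18 and 6.19 in Young and 6.28, 6.30 and 6.30 in Adult, a difference of 0.01 with a 95% interval from -0.42 to 0.44. The files place the probes of ND3 and ND4L on mm9 chromosome 1, not on the mitochondrial genome, so signal of a nuclear copy and of the mitochondrial transcript cannot be told apart; the other 4 lie on the mitochondrial genome. ND3 had the smallest p (difference -0.27, 95% interval -0.78 to 0.23, limma adjusted p = 0.319), followed by ND2 (0.18, interval -0.26 to 0.62), ND5 (0.14, interval -0.29 to 0.58) and ND4L (0.10, interval -0.32 to 0.51). Every nuclear core difference lay below every ND difference here and in each of the 20 alternatives. Under median scaling the ND differences themselves turned negative (-0.81 to -0.36, 1 of 6 called lower) beside nuclear core differences of -1.71 to -1.25. Level moved with this contrast. Of the ND genes, 5 had mean levels between 6 and 7, where 0 of the 41 complex I genes lay and where the 202 genes had a median difference of 0.25, with 4.95% lower. ND3 lay between 2 and 4 with 19 of the 41, where 2765 genes had a median of -0.38 and 23.8% were lower. The part of level in the contrast was not tested.

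**Figure D2:**
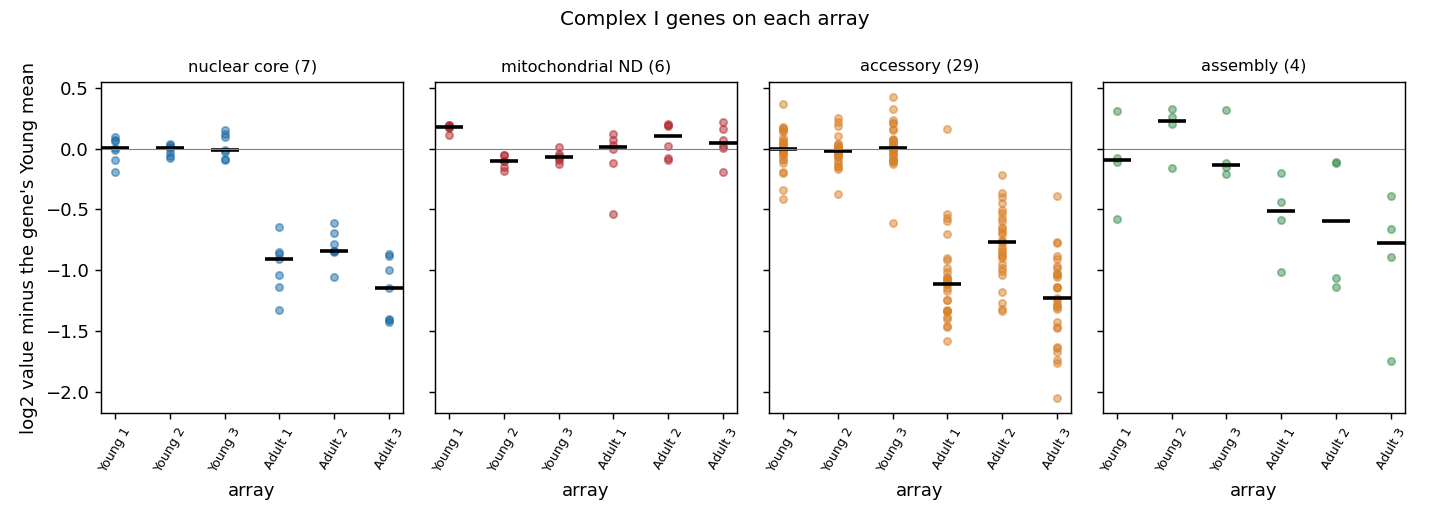
Log2 value on each array minus the gene's Young mean, 1 point per gene and array, for the 7 nuclear core subunits, the 6 mitochondrially encoded ND subunits, the 29 accessory subunits and the 4 assembly factors; black bars are medians. The nuclear core and most accessory genes are lower on all 3 Adult arrays, while the ND genes lie around 0 on all 6 arrays.

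Of the 29 accessory subunits, 24 were lower in Adult and 5 did not pass, with a median difference of -1.02 and a range from -1.46 to -0.30. The largest falls were in Ndufa12, Ndufs6, Ndufb2 and Ndufa8. Ndufa12, a matrix arm subunit that joins late in assembly, measured 4.03, 3.72 and 3.87 in Young and 2.54, 2.55 and 2.13 in Adult. It was 2.76-fold lower (difference -1.46 ± 0.21 SE, limma adjusted p = 0.0179). Ndufs6, a zinc-binding subunit of the matrix arm, measured 3.31, 3.34 and 3.34 in Young and 1.75, 2.35 and 1.69 in Adult. Its Young arrays were almost equal, and it was 2.64-fold lower (limma adjusted p = 0.0217). Ndufb2, a small subunit of the distal membrane arm, measured 3.75, 3.81 and 3.83 in Young and 2.56, 2.90 and 1.75 in Adult. The fall of 1.40 ± 0.32 SE passed the threshold (limma adjusted p = 0.0314), with the widest Adult spread of these genes. Ndufa8, a subunit of the intermembrane space side, measured 1.55, 1.37 and 1.33 in Young and 0.34, 0.08 and -0.35 in Adult (2.63-fold lower, limma adjusted p = 0.0218).

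By position in the complex, 15 of 16 matrix arm subunits were lower, as were 7 of 9 of the proximal membrane arm and 9 of 10 of the distal membrane arm. The medians were -1.02, -0.93 and -1.08, and the class ranges overlapped widely. In the matrix arm, Ndufa2, Ndufa9 and Ndufv3 fell by 1.25, 1.25 and 1.19, and Ndufa7 and Ndufa5 by 1.0 and 0.99. Ndufa6 fell by 0.69 (limma adjusted p = 0.0496, just inside the threshold) and passed in 4 of 20 alternatives. Ndufs4, whose loss in mice is a common model of complex I disease, overlapped between the groups and did not pass (difference -0.65, 95% interval -1.31 to 0.01, limma adjusted p = 0.109). In the proximal membrane arm, Ndufa10, Ndufc1 and Ndufa11 fell by 1.31, 1.17 and 1.09, and Ndufa3 and Ndufa13 by 0.93 and 0.85. Ndufa1, an X-linked subunit, fell by 0.66 and passed in 6 of 20 alternatives. Ndufs5 and Ndufc2 did not pass, at -0.83 (95% interval -1.44 to -0.23, limma adjusted p = 0.0505) and -0.78 (interval -1.55 to -0.02, limma adjusted p = 0.0994). In the distal membrane arm, Ndufb6, Ndufb5, Ndufb9 and Ndufb8 fell by 1.33, 1.25, 1.18 and 1.13. Ndufb4, Ndufb10, Ndufb7 and Ndufb11 fell by 1.02, 1.0, 0.92 and 0.88, and Ndufb3 did not pass (difference -0.59, 95% interval -1.17 to -0.01, limma adjusted p = 0.102).

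For 8 genes with more than 1 probe the probes were compared in a fit over all 48378 probes, of which 23.4% were called. All probes of Ndufa5, Ndufb2, Ndufb4, Ndufb5, Ndufb6 and Ndufv3 passed, both Ndufaf4 probes did not, and the differences of Ndufb2's probes (-1.41 and -1.40) were the closest. The Ndufb2 probes share part of their target, as do those of Ndufb4. Only Ndufb11, an X-linked membrane arm subunit, had probes that differed in call. The starts of its 3 probes are shown because 2 of them overlap by 55 identical bases and the other lies 2118 bases away; capitals mark the 25 of these shared bases that fall in the stretch shown. The first 30 of the 60 bases of each probe, as the files give them, on the minus strand of mm9 chromosome X, were:
Ndufb11 at 20192453 to 20192512: tcatcCGCTGCTTGTTATTTACCTGGTTCC
Ndufb11 at 20192448 to 20192507: CGCTGCTTGTTATTTACCTGGTTCCtcaga
Ndufb11 at 20194630 to 20194689: ttccctacagggccatctagatgtcaccgc
The overlapping probes gave falls of 0.88 and 0.98 (limma adjusted p = 0.0417 and 0.0339 over all probes). The brighter of them, which stands for the gene, measured 4.48, 4.31 and 4.64 in Young and 3.57, 3.88 and 3.33 in Adult. The distant probe was much dimmer, at -0.76, -2.16 and -1.53 in Young and -1.94, -1.59 and -2.07 in Adult. It gave -0.39 ± 0.39 SE (95% interval -1.33 to 0.56, limma adjusted p = 0.456).

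Ndufab1, the mitochondrial acyl carrier protein, which sits in both arms of the complex and also serves lipoic acid and iron-sulfur cluster synthesis, had the smallest difference of the 41. Its probe measured -0.61, -0.73 and -1.59 in Young and -0.82, -1.64 and -1.37 in Adult, which overlap (difference -0.30, 95% interval -1.17 to 0.57, limma adjusted p = 0.521). A probe outside the name rule is described in the array annotation as an Ndufab1 transcript. It measured 1.85, 1.92 and 2.13 in Young and 0.49, 0.98 and 0.21 in Adult, without overlap, and was lower by -1.41 ± 0.26 SE (limma adjusted p = 0.0261 over all probes). Whether Ndufab1 differed therefore depends on the probe. The 2 probes lie on the minus strand of mm9 chromosome 7, and their first 30 bases show that they are different targets:
Ndufab1 at 129231667 to 129231726: tgtaaatggctactttaaatcccagggtag
Ndufab1 transcript at 129234361 to 129234420: gacagcggctctgttcaacttgtatttaaa
A probe that the annotation describes as a further transcript of Ndufa3 differed by -0.52 ± 0.48 SE (adjusted p = 0.420). A probe named for an Ndufc2-like predicted gene starts just beyond the Ndufc2 probe, on mm9 chromosome 7 from 104556210 to 104556269 against 104556135 to 104556194. It differed by -1.20 ± 0.26 SE (adjusted p = 0.0318), where the Ndufc2 probe itself did not pass.

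Ndufa4, found in complex IV although first described in complex I, had the largest fall of the 41. It measured 2.15, 2.23 and 1.84 in Young and -0.27, 0.52 and -0.03 in Adult, with a wide gap between the groups, and fell by 2.0 ± 0.27 SE (limma adjusted p = 0.0167). Of the differences of the 8017 brightest genes, 0.137% were lower still. It passed in 17 of 20 alternatives, including 4 of 6 with an array left out, more than any other of the 41. Its paralogue Ndufa4l2, named here after its value was seen, went the other way. It measured -3.07, -2.86 and -3.01 in Young and -0.75, -1.44 and -1.24 in Adult (difference 1.84 ± 0.24 SE, limma adjusted p = 0.0177 over all probes). These are low levels, and dim genes tended to be higher in Adult. Of 4 equal bins of genes by level, the next to dimmest had a median difference of 0.55 and 23% higher. The probe of Ndufa4 lies on mm9 chromosome 6 from 11850423 to 11850482.

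None of the 4 assembly factors passed, where 7 of 7 core and 24 of 29 accessory subunits did, and their median difference was -0.64. By limma 0 were lower and 0 higher, and 2 of the 4, Ndufaf1 and Ndufaf4, had an unadjusted p under 0.05 (0.0374 and 0.0180). Ndufaf1, which acts on the membrane arm, measured -2.24, -1.40 and -1.34 in Young and -2.10, -2.80 and -3.40 in Adult. The groups overlapped through Young replicate 1 (difference -1.11, 95% interval -2.12 to -0.09, adjusted p = 0.0865). Ndufaf4, which works with Ndufaf3 on the ubiquinone end of the matrix arm, measured -0.73, -0.29 and -0.83 in Young and -1.21, -1.69 and -1.28 in Adult. Its groups did not overlap (difference -0.77, interval -1.36 to -0.19, adjusted p = 0.0563). Ndufaf3 measured -1.34, -1.07 and -1.39 in Young and -1.47, -1.38 and -2.15 in Adult, a difference of -0.40 with an interval from -1.05 to 0.25. Ndufaf2, a relative of Ndufa12 that takes its place during assembly, measured -1.27, -1.75 and -1.74 in Young and -2.60, -1.71 and -1.98 in Adult (difference -0.51, interval -1.23 to 0.21). A difference between the classes was not tested, and the order of their medians changed with scaling. Core and assembly medians were -0.99 and -0.64 here, but -0.76 and -1.03 with quantile normalization and -0.71 and -0.86 with cyclic loess. The classes also differed in level: 0 of the 4 assembly factors lay among the 8017 brightest genes, against 7 of 7 core and 25 of 29 accessory subunits. Of 4 equal bins of genes by level, those that hold 3 and 1 of the factors had medians of 0.55 and -0.05 over all their genes, with 3.43% and 10.7% lower.

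The calls for the assembly factors moved with the processing. With median scaling 4 of 4 were lower, beside 7 of 7 core and 28 of 29 accessory subunits. Normexp background correction with quantile normalization (also the series matrix values) gave 3 of 4, beside 6 of 7 core and 22 of 29 accessory. Quantile normalization alone, array weights, trend and robust moderation, a filter on all 6 arrays and the mean of a gene's probes each gave 1 of 4, and the other alternatives, cyclic loess among them, gave 0 of 4. Further assembly genes gave a mixed count. The factors Ndufaf5 to Ndufaf8 carry older names in the annotation and were reached by updated symbols. Of these, 0 of 4 passed by limma, 0 had an unadjusted p under 0.05, and all differences were negative, from -0.68 for Ndufaf8 to -0.18 for Ndufaf5, which modifies Ndufs7. The probe updated to Ndufb1 was well above background on 1 of 6 arrays and was not tested. Of 9 assembly genes without an Nduf name, 2 were lower (22.2%, beside 8.44% of all genes), 0 higher and 7 did not pass. Differences were negative in 8 and positive in 1 (Timmdc1, 0.39, limma adjusted p = 0.199). Ecsit, a partner of Ndufaf1, measured 0.59, 0.68 and 0.46 in Young and 0.15, -0.23 and -0.35 in Adult (difference -0.72, adjusted p = 0.0480). Tmem186 fell by 1.80 (adjusted p = 0.0432), but was well above background on 5 of 6 arrays. Tmem126b and Dmac2 differed by -0.76 and -0.51 (adjusted p = 0.0731 and 0.0817).

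**Figure D3:**
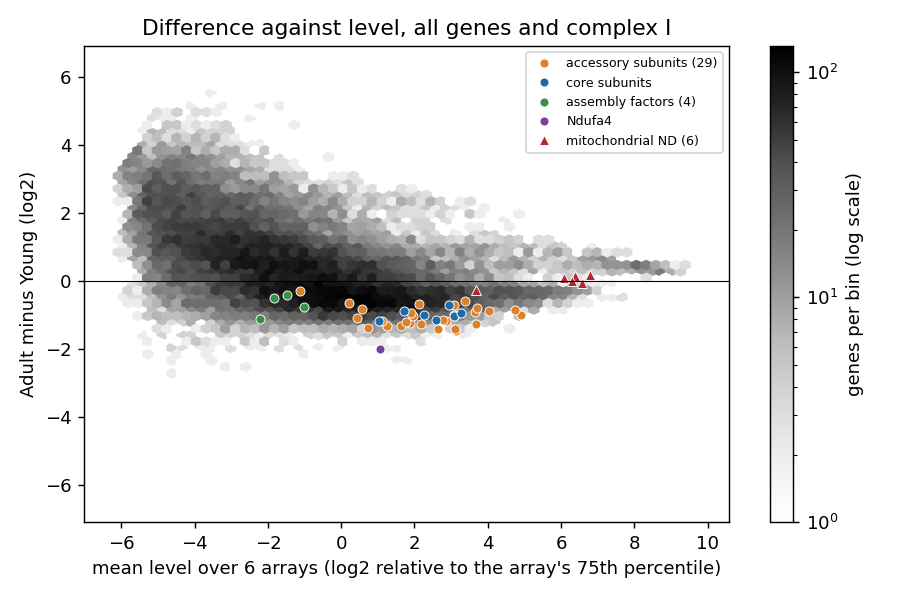
Adult minus Young difference (log2) against mean level over the 6 arrays (log2, with the 75th percentile of an array at 0), with all 32068 genes as grey bins on a log colour scale and complex I genes as coloured points. The subunits lie in the lower part of the bright genes, the assembly factors among dimmer genes, and 5 of the 6 ND genes at levels between 6 and 7.

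The 41 genes were more spread between arrays in Adult than in Young. The median SD over the 41 genes was 0.28 in Adult and 0.11 in Young, and the Adult SD was the larger in 33 of 41. Adult replicate 2 was the highest Adult array in 34 of 41 genes and Adult replicate 3 the lowest in 25. Centred on each gene's mean, the medians of the 41 were 0.51, 0.48 and 0.58 on Young replicates 1, 2 and 3 and -0.57, -0.27 and -0.67 on Adult replicates 1, 2 and 3. Young replicate 2, the sample of 2 months, was the lowest Young array in 12 genes and the highest in 9. The medians of complexes II to V on the Adult arrays were -0.55, -0.27 and -0.76, in the same order of arrays. Those of the 8017 brightest genes were -0.09, -0.07 and -0.23, again in that order. The SDs and array orders were not counted over all genes, so neither is shown to be particular to complex I.

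The rest of the respiratory chain moved by a like amount, so the fall was not shown to be particular to complex I. Of 38 nuclear genes of complexes II to V, 33 were lower, 0 higher and 5 did not pass, with a median difference of -1.07 against -1.01 for the 36 complex I subunits without Ndufa4. By complex, 2 of 4 genes were lower in complex II, 8 of 9 in complex III, 9 of 10 in complex IV and 14 of 15 in complex V. Examples are Sdhb of succinate dehydrogenase (-1.30), Uqcrq of complex III (-1.61), Cox5a of complex IV (-1.90) and Atp5o of ATP synthase (-1.38). Of 78 mitochondrial ribosome genes, which translate the ND messengers, 42 were lower and 0 higher, with a median of -0.91. These lists share the arrays with complex I, and no difference between them was tested.

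**Figure D4:**
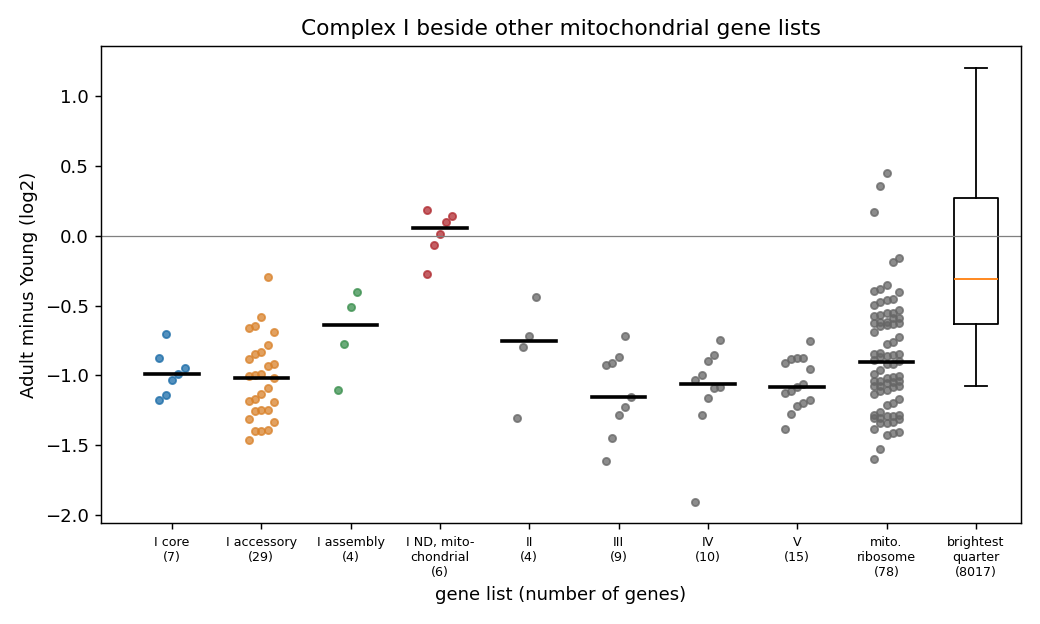
Adult minus Young difference (log2) of each gene in complex I classes, complexes II to V and the mitochondrial ribosome, with list medians as black bars; the box shows the 8017 brightest genes (orange line, median; whiskers, 5th to 95th percentile). The nuclear lists have medians between -1.15 and -0.64, and the mitochondrially encoded ND genes lie around 0.

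Regulators of mitochondrial gene expression changed in few cases. Of 12 listed, 2 were lower, 0 higher and 10 did not pass. Tfb2m, a transcription factor of mitochondrial DNA, was 2.44-fold lower (difference -1.29 ± 0.24 SE, limma adjusted p = 0.0251). Ppargc1b, a coactivator of mitochondrial biogenesis, was lower by -0.67 (adjusted p = 0.0498). Esrra and Gabpa, which bind promoters of respiratory genes, differed by -0.85 (adjusted p = 0.0679) and -0.61 (adjusted p = 0.128).

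Promoters of the complex I genes are described next, and no link between a motif and the differences was tested. RefSeq promoter windows (GRCm38.p6, 250 bases before to 50 after the start) were matched for 37 of the 41 genes and searched on both strands for 4 exact motifs. The NRF1 core CGCATGCG stood in 3 of 37 (8.11%), against 2.07% of 27025 genes, and the YY1 core CAAGATGGC in 4 of 37 (10.8%), against 1.42%. The GABPA core CCGGAAGT stood in 1 of 37 (2.70%), against 4.31%, and the ESRRA core TCAAGGTCA in 0 of 37, against 0.466%. No promoter of these 37 held more than 1 of the motifs. A match describes letters, not binding. Stretches of 30 bases around the NRF1 matches of 2 subunits and 1 assembly factor (before the start) and the YY1 matches of 4 subunits (after it) were, on the gene's strand with the motif in capitals:
Ndufa8, NRF1, chr2:36049329-36049358: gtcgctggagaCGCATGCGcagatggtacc
Ndufa11, NRF1, chr17:56717692-56717721: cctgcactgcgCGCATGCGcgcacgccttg
Ndufaf4, NRF1, chr4:24897960-24897989: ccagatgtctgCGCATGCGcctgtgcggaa
Ndufs6, YY1, chr13:73328433-73328462: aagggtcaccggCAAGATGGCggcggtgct
Ndufs7, YY1, chr10:80249462-80249491: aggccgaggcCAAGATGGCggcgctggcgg
Ndufa3, YY1, chr7:3617384-3617413: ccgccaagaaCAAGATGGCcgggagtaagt
Ndufc1, YY1, chr3:51408915-51408944: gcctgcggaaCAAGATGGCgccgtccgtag
The differences of these genes were -1.39 for Ndufa8, -1.09 for Ndufa11, -0.77 for Ndufaf4, -1.40 for Ndufs6, -0.95 for Ndufs7, -0.93 for Ndufa3 and -1.17 for Ndufc1.

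Markers of other cell types moved with the groups, and their part in the fall of complex I was not tested. Counts of higher calls stand beside 20% of all genes, and 32% and 23% in the dimmest and next dimmest of the 4 bins of level. Counts of lower calls stand beside 8.44% of all genes and 18.9% of the 8017 brightest. The levels summed over a list (linear, with the 75th percentile at 1) are often carried by 1 bright probe, which is named with its share. Of 10 markers of myofibres, which are rich in mitochondria, 4 were lower, 1 was higher (Myh2) and 5 did not pass. The lower ones were Ryr1, Atp2a1, Acta1 and Myh1, of which Myh1 was well above background on 4 of 6 arrays. Differences of the 10 markers were negative in 5 and positive in 5, with a median of -0.01. Their sum was 35.7 to 52.0 in Young and 19.3 to 24.6 in Adult, of which Atp2a1 made up 66.7% to 74.8%; without it the sums were 9.02 to 13.1 and 6.42 to 7.66. Of 3 markers of committed myoblasts, 2 were lower (Myog and Mymk), with a list median of -3.72. Their sums were 10.7 to 11.2 and 3.79 to 5.38, and without Myod1 3.41 to 5.27 and 0.194 to 0.202.

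Of 7 leukocyte markers 2 were higher (Tyrobp and Adgre1), 0 lower and 5 did not pass, and all 7 differences were positive, with a median of 0.54. Their sums were 219.1 to 424.7 in Young and 377.7 to 401.8 in Adult, of which Itgam made up 96.0% to 97.8%. Itgam encodes CD11b, a marker the cells were sorted against. Without Itgam the sums were 7.48 to 9.32 and 11.6 to 12.7. Tyrobp was well above background on no Young array. Of 4 mural cell markers 3 were higher (Kcnj8, Pdgfrb and Rgs5; sums 1.96 to 3.81 and 7.07 to 12.1), as were 2 of 3 adipocyte markers (Adipoq and Cfd; sums 0.161 to 0.371 and 1.10 to 1.62). Of 4 endothelial markers 0 passed by limma, with 0 at an unadjusted p under 0.05 (sums 16.8 to 25.6 and 15.9 to 22.0, with Tek at 79.2% to 87.2%). Of 2 erythroid markers tested 0 passed by limma, with 0 at an unadjusted p under 0.05 (sums 1.32 to 67.1 and 43.2 to 70.2, with Hba-a1 at 71.5% to 99.0%). Of 2 fibro-adipogenic markers tested, 1 was higher (Dpp4; sums 0.217 to 0.440 and 0.220 to 0.857), and Pdgfra was well above background on no array. The 8 satellite cell markers had sums of 52.1 to 63.3 in Young and 32.0 to 51.0 in Adult.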

How the data were processed

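The authors' scanner software was Feature Extraction, per the file headers; the deposited intensity values are background-subtracted and detrended processed signals, with raw mean and local background signals beside them, not scaled between arrays. The deposited series matrix holds log2 values (median 7.56 in each column) made by steps not stated in the labels. They lay within 0.000106 of normexp (offset 50) with quantile normalization of the scanner signals, which settled their scale and direction.

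Control and outlier spots were left out, spots of a probe averaged, and log2 processed signals scaled by the 75th percentile within an array. A probe entered the test if 3 or more arrays had it well above background, and the probe of highest mean stood for its gene (symbols updated with the GRCm38.p6 table: 26300 probes by accession, 2044 by symbol, 355 by synonym). The Adult minus Young difference was fitted by limma (version 3.58.1, R 4.3.3), with Benjamini-Hochberg adjustment over 32068 genes and a threshold of 0.05, after the fit was tested on simulated data. All arrays lay on 1 slide. Members and lists were chosen with earlier results of these data known. Named in full were the core subunits (1 is not reported here by name), the 5 largest falls, genes whose probes disagreed, and the assembly factors; other lists name up to 4 genes with the smallest p, except that ND4, Pax7, Cd34, Myh2, Pdgfra and the bright markers that carry a sum were added after values were seen, as were the shares at an unadjusted p. Ndufa4l2, the further Ndufab1, Ndufa3 and Ndufc2-like probes, the complex II to V examples and the bands of level were picked after values were seen. Alternatives covered scaling, background correction, filter, probe choice, features tested, the variance model, weights per array, a block for the array row or the replicate number, and leaving out each array. The number of arrays limits the precision.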

Additional observations from a re-analysis of the deposited data

How the results depend on the processing

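All 41 differences kept their sign in the 20 alternatives, and 0 genes were higher in any. The lower calls, 32 here, ranged from 24 to 40 where all arrays were used without the replicate block. Leaving out 1 array gave 0 to 25. Same-numbered samples did not pair: their deviations correlated at -0.0023, -0.093 and -0.14. A fit by limma with the replicate block called 0 of the 41 and 0 of all 32068 genes (33 of the 41 at an unadjusted p under 0.05). A slide block could not be fitted with 1 slide. Medians moved with scaling, for all 41, core, accessory and assembly genes in turn: -1.54, -1.53, -1.56 and -1.18 with median scaling, where all genes lay at -0.24; -0.84, -0.71, -0.86 and -0.86 with cyclic loess. With normexp and with the series matrix values the medians were -0.81, -0.82, -0.81 and -0.78, so the assembly genes lay close to the subunits. Quantile normalization gave -0.76 for core and -1.03 for assembly genes, and a 75th percentile taken over consistently detected probes gave -0.85 for core. The cause was not tested.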
